A study of Homo sapiens with 12 samples.

Results

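The prostanoid genes described here are the cyclooxygenases *PTGS1* and *PTGS2* (COX-1 and COX-2), the terminal synthases *PTGES*, *PTGES2*, *PTGIS* and *TBXAS1*, the inactivating enzyme *HPGD*, the prostaglandin E2 receptors *PTGER2* and *PTGER4*, and *MGLL*, which supplies arachidonate. They are 10 of the 18417 genes that the array reports by a feature with exactly 1 gene symbol, and each of the 10 has 1 such feature. The set was chosen by symbol, and *PTGS2*, *MGLL* and *TBXAS1* were selected on their lower signal after knockdown without serum. Values of that comparison are therefore given for the 10 genes as a description with no test.

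Calu-6 is an established human lung carcinoma line. The cells received 1 SMARTpool siRNA against *LAPTM4B* (siLAPTM4B) or 1 scrambled SMARTpool (siControl), both with Lipofectamine RNAiMAX, and a day later were kept in DMEM/F12 medium with no serum (0% FBS) or with 10% FBS. The 4 groups were siLAPTM4B at 0% FBS, siControl at 0% FBS, siLAPTM4B at 10% FBS and siControl at 10% FBS. Each held 3 biological replicates by the labels, which do not say whether these were separate transfections, and total RNA taken 48 h after the change of medium, 72 h after transfection, was read on 12 Affymetrix Human Gene 1.0 ST arrays. The effect of the single siRNAs of a pool, and of the same knockdown in another line, was not measured on these arrays.

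Prostanoids are signaling lipids made from arachidonate. Phospholipases release arachidonate from membranes, and monoacylglycerol lipase, the product of *MGLL*, releases it from 2-arachidonoylglycerol. COX-1, made in most tissues, and COX-2, an inducible enzyme, turn it into prostaglandin H2, from which terminal synthases make prostaglandin E2, prostacyclin or thromboxane. COX-2 and prostaglandin E2 are known for their role in inflammation and are often raised in lung cancer.

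All values are log2 signals, so that a difference of 1 is a 2-fold difference. Relative levels in percent are the fold changes on the linear scale. Signals of different genes were read by different probes and are not compared with each other. All 10 genes lay above the lower quartile of the features on each of the 12 arrays. P-values measure only the spread between these replicates, which may be in part technical. The 12 arrays lay close together, with a mean correlation to the other arrays of the same group between 0.9969 and 0.9976, and the number of arrays limits the precision. *LAPTM4B* averaged 10.49 ± 0.05 in siLAPTM4B cells and 11.91 ± 0.04 in siControl cells at 0% FBS, and 10.01 ± 0.02 in siLAPTM4B cells and 11.77 ± 0.02 in siControl cells at 10% FBS (SD, n = 3 each), a level of 37.3% and 29.6% of siControl (limma, adjusted p = 8.6e-06 and 6.4e-07). The knockdown difference of *LAPTM4B* itself was smaller at 0% FBS, by 0.33 ± 0.06 SE (limma, adjusted p = 0.035). Its part in the differences between the media of other genes was not tested. Of the 6 epithelial markers, 5 lay above the median of every array, while *CDH1*, the epithelial cadherin, lay between 6.10 and 6.29, near the lower quartile. All 3 endothelial markers and all 3 platelet markers lay below the median of every array, as did 3 of 4 leukocyte markers and 2 of 4 fibroblast markers. Among the markers above it on all 12 arrays were *LYZ* and *COL1A1*. RNA from bulk cultures does not tell fewer expressing cells apart from less RNA per cell.

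The windows before the transcription starts of 4 of the genes are shown, since *PTGS2* and *PTGES* moved in the same direction and the 2 receptors in opposite directions when serum was withdrawn. RefSeq windows were found for 8 of the 10 genes, *MGLL* and *PTGIS* being the others. Each is the 250 bases upstream of the start in GRCh38.p14, written 5′ to 3′ on the strand of the gene, with matches to the searched motifs in capitals. The windows are chr1:186680424-186680673 (minus strand) for *PTGS2*, chr9:129753043-129753292 (minus strand) for *PTGES*, chr14:52314062-52314311 (plus strand) for *PTGER2* and chr5:40679665-40679914 (plus strand) for *PTGER4*.
PTGS2: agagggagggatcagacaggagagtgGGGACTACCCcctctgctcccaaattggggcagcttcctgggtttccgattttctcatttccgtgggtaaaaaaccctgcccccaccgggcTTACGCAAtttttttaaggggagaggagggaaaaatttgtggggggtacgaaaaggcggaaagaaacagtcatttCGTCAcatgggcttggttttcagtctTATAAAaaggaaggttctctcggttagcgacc
PTGES: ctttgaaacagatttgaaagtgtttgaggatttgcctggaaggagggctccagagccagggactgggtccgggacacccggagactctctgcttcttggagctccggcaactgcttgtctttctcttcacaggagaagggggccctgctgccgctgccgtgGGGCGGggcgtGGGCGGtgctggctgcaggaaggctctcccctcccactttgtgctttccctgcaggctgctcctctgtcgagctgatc
PTGER2: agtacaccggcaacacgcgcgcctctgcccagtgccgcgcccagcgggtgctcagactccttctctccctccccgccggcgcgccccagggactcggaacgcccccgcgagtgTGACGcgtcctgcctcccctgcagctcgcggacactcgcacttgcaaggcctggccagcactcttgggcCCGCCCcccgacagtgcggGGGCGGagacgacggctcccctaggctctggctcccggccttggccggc
PTGER4: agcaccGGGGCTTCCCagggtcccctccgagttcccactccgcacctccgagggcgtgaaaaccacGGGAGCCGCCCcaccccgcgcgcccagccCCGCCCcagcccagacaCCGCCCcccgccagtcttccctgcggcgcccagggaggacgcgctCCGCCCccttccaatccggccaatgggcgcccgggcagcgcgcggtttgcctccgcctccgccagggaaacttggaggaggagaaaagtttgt

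Both strands were searched for 7 motifs. In *PTGS2*, a simplified NF-kappaB motif, GGGA and CC with any 4 bases between them, matched 224 to 215 bases upstream of the start. TTNNGCAA, a simplified C/EBP motif, matched 133 to 126 bases upstream. TGACG, the short form of a cyclic AMP response element, matched on the opposite strand 58 to 54 bases upstream, and TATAAA matched 32 to 27 bases upstream. Over 35116 windows of this length, 22.6% held the NF-kappaB motif, 9.05% held TTNNGCAA, 21.2% held TGACG and 10.7% held TATAAA. The *PTGES* window held none of these 4 and 2 matches to the GC box GGGCGG, which 42.6% of windows held. *PTGER2* held 1 match to TGACG and 2 GC boxes, and *PTGER4* held 2 matches to the NF-kappaB motif, 1 of which overlapped a GC box, and 4 GC boxes. None of the 4 windows matched TGANTCA (an AP-1 motif, in 6.57% of windows) or TGACNNNGC (the core of an antioxidant response element, in 10.9%). Of the windows not shown, that of *TBXAS1* matched TGANTCA 96 to 90 bases upstream and TGACNNNGC 127 to 119 bases upstream. It is chr7:139829014-139829263, inside the locus of the gene (chr7:139778242-140020293) and not before its first base. Windows of *PTGS1* and *PTGES2* matched TGACNNNGC, and windows of *PTGS1* and *HPGD* matched the NF-kappaB motif. A window of *HPGD* matched TGACG, windows of *PTGS1* and *TBXAS1* matched TATAAA, and windows of *PTGS1*, *PTGES2* and *HPGD* held GC boxes. A match is a run of letters and not a measured site.

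The gene for COX-2, *PTGS2*, at chr1:186671791-186680423, had the widest span of the 10 genes over the 12 arrays. At 0% FBS its signal was 8.82, 8.99 and 9.13 in siLAPTM4B cells, against 10.19, 10.06 and 10.31 in siControl cells. At 10% FBS it was 10.84, 10.88 and 10.83 in siLAPTM4B cells, against 11.48, 11.58 and 11.57 in siControl cells. The 4 groups did not overlap, and siControl cells at 10% FBS were highest, followed by siLAPTM4B cells at 10% FBS, siControl cells at 0% FBS and siLAPTM4B cells at 0% FBS. At 0% FBS its level in siLAPTM4B cells was 43.2% of that in siControl cells (log2 fold change -1.21 ± 0.09 SE, not tested). At 10% FBS, on arrays outside the comparison that the gene was selected on, *PTGS2* fell to 61.8% of the siControl level with knockdown (-0.70 ± 0.05 SE, limma adjusted p = 0.00046). The knockdown difference was thus larger without serum by 0.52 ± 0.11 SE on the log2 scale (difference -0.52), which was not tested. Without serum the level was 27.3% of that with 10% FBS in siLAPTM4B cells (-1.87 ± 0.07 SE) and 39.1% in siControl cells (-1.36 ± 0.07 SE). These are values without a test, since the arrays at 0% FBS also served to choose the gene.

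The other cyclooxygenase gene, *PTGS1*, was dim on every array, at percentiles 26.7 to 31.2 of the features, and ranged from 6.25 to 6.56 over the 12 arrays. Its 4 groups overlapped. It averaged 6.42 ± 0.07 in siLAPTM4B cells and 6.47 ± 0.07 in siControl cells at 10% FBS (SD, n = 3 each), a difference of -0.05 ± 0.06 SE (limma, adjusted p = 0.73). A difference of this size was within the spread between replicates.

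**Figure D1:**
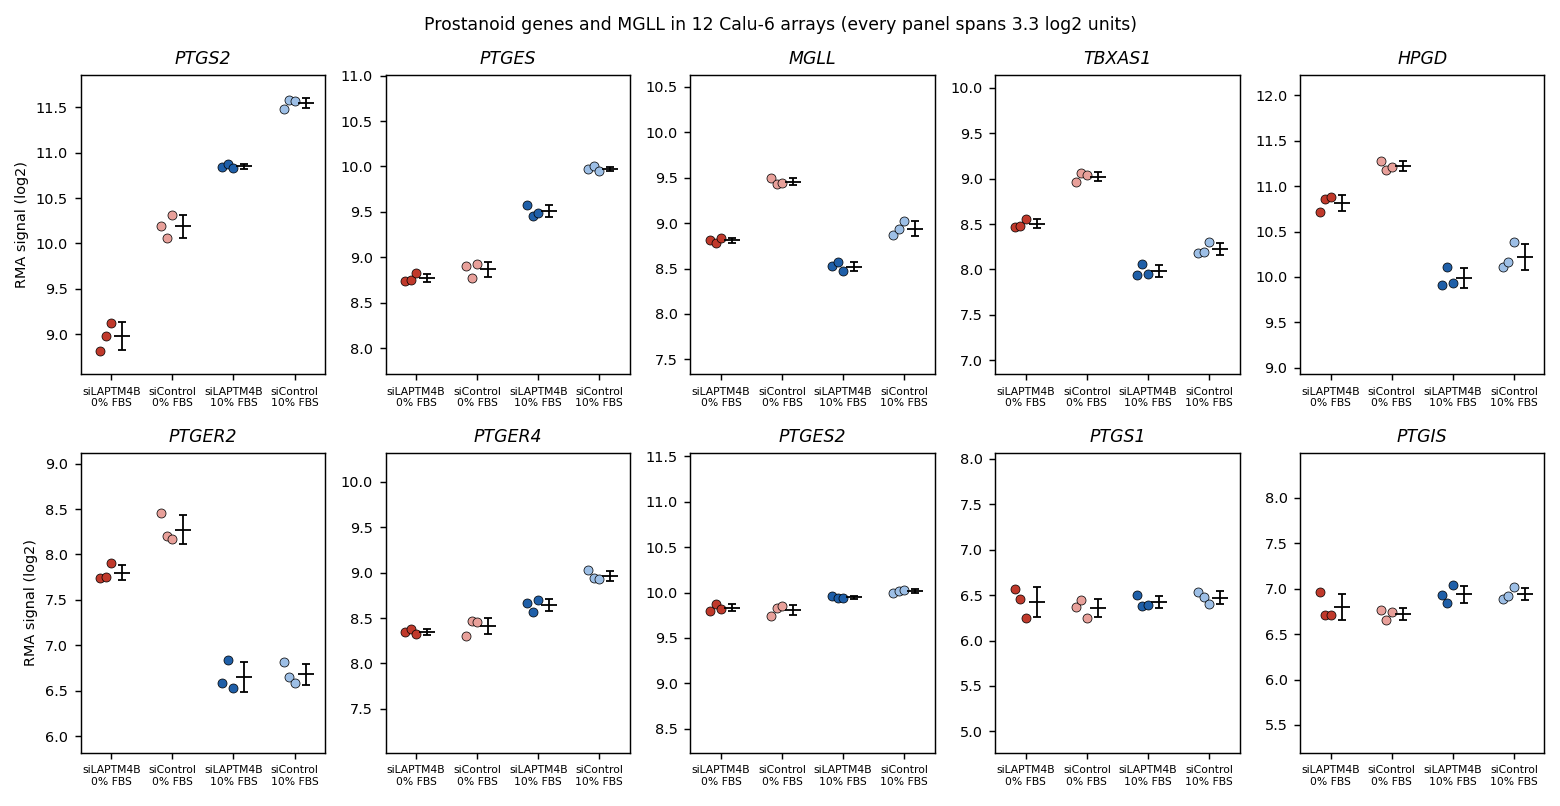
Log2 RMA signal of the 10 genes on the 12 arrays, in 4 columns of 3 replicates each (siLAPTM4B and siControl at 0% FBS in reds, at 10% FBS in blues). Points are arrays, and the dash with its bar is the group mean ± SD. Every panel spans the same height. The 4 groups of *PTGS2* do not overlap, those of *HPGD* and *TBXAS1* stand higher at 0% FBS than at 10% FBS, those of *PTGS1* overlap, and those of *PTGIS* overlap except that siControl at 0% FBS lies below both groups at 10% FBS.

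*MGLL*, at chr3:127689066-127823185, stood in another order than *PTGS2*. Without serum the *MGLL* signal was 8.81, 8.79 and 8.84 in siLAPTM4B cells, against 9.50, 9.43 and 9.44 in siControl cells. With serum it was 8.52, 8.57 and 8.47 in siLAPTM4B cells, against 8.86, 8.93 and 9.02 in siControl cells. Both siLAPTM4B groups lay below both siControl groups, and the groups did not overlap, although siLAPTM4B cells at 0% FBS and siControl cells at 10% FBS were only 0.03 apart at their nearest arrays. At 0% FBS its level in siLAPTM4B cells was 64.0% of that in siControl cells (-0.64 ± 0.04 SE, not tested). With knockdown at 10% FBS, *MGLL* fell to 74.8% of the siControl level (-0.42 ± 0.06 SE, limma adjusted p = 0.006). The difference at 0% FBS minus that at 10% FBS was -0.23 ± 0.07 SE, which was not tested. Unlike *PTGS2*, the *MGLL* signal was higher at 0% FBS than at 10% FBS, by 0.29 ± 0.05 SE in siLAPTM4B cells and by 0.52 ± 0.05 SE in siControl cells, again as values without a test.

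*PTGES* encodes microsomal prostaglandin E synthase, the inducible synthase of prostaglandin E2 that is usually coupled to COX-2. Without serum *PTGES* measured 8.74, 8.75 and 8.82 in siLAPTM4B cells, against 8.90, 8.77 and 8.93 in siControl cells. With 10% FBS it measured 9.58, 9.45 and 9.49 in siLAPTM4B cells, against 9.97, 10.00 and 9.95 in siControl cells. The siRNA groups overlapped at 0% FBS and were apart at 10% FBS, and both groups at 0% FBS lay below both at 10% FBS. At 0% FBS the knockdown difference was -0.10 ± 0.05 SE (not tested). At 10% FBS *PTGES* fell to 72.3% of the siControl level (-0.47 ± 0.05 SE, limma adjusted p = 0.0025). The difference at 0% FBS minus that at 10% FBS was 0.37 ± 0.07 SE, of the opposite sign to that of *PTGS2*, and was not tested. Serum withdrawal lowered *PTGES* to 60.1% in siLAPTM4B cells (-0.73 ± 0.05 SE, limma adjusted p = 1.4e-05) and to 46.5% in siControl cells (-1.11 ± 0.05 SE, limma adjusted p = 2.7e-06).

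*PTGES2*, the gene of a constitutive prostaglandin E synthase, varied little, from 9.74 to 10.03 over the 12 arrays. With knockdown at 10% FBS it averaged 9.95 ± 0.02 in siLAPTM4B cells and 10.01 ± 0.02 in siControl cells (SD, n = 3 each), which did not pass the test (-0.06 ± 0.04 SE, limma adjusted p = 0.49). On serum withdrawal the difference was -0.12 ± 0.05 SE in siLAPTM4B cells (limma, adjusted p = 0.13), while *PTGES2* fell by a small amount in siControl cells (-0.21 ± 0.04 SE, adjusted p = 0.01). *PTGIS*, the prostacyclin synthase gene, was dim, between 6.65 and 7.04, and each group overlapped its neighbour in level, while siControl cells at 0% FBS lay below both groups at 10% FBS. Its knockdown difference at 10% FBS was -0.0047 ± 0.06 SE (limma, adjusted p = 0.98). Its serum withdrawal difference was -0.14 ± 0.08 SE in siLAPTM4B cells (adjusted p = 0.27) and -0.22 ± 0.05 SE in siControl cells (adjusted p = 0.016). The call in siControl cells was lost without siControl replicate 2 at 0% FBS (adjusted p = 0.061) and without siControl replicate 3 at 10% FBS (0.052).

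*TBXAS1* encodes thromboxane synthase, an enzyme best known from platelets. Without serum *TBXAS1* measured 8.47, 8.48 and 8.56 in siLAPTM4B cells, against 8.96, 9.06 and 9.04 in siControl cells. With 10% FBS it measured 7.94, 8.06 and 7.95 in siLAPTM4B cells, against 8.18, 8.19 and 8.31 in siControl cells. The groups did not overlap, and both groups at 0% FBS lay above both at 10% FBS. The 3 platelet markers averaged 6.70 to 6.83 over all arrays and did not separate the groups. At 0% FBS the level of *TBXAS1* in siLAPTM4B cells was 69.8% of that in siControl cells (-0.52 ± 0.05 SE, not tested). The knockdown difference at 10% FBS was -0.24 ± 0.06 SE and just missed the threshold (limma, adjusted p = 0.054). The signal without serum was higher by 0.52 ± 0.06 SE in siLAPTM4B cells and by 0.80 ± 0.05 SE in siControl cells, as values without a test.

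*HPGD* encodes 15-hydroxyprostaglandin dehydrogenase, which inactivates prostaglandin E2. Without serum the *HPGD* signal was 10.72, 10.86 and 10.88 in siLAPTM4B cells, against 11.28, 11.17 and 11.21 in siControl cells. With 10% FBS it was 9.91, 10.11 and 9.94 in siLAPTM4B cells, against 10.11, 10.17 and 10.38 in siControl cells. *HPGD* thus stood opposite to *PTGES* with respect to serum, with both groups at 0% FBS above both at 10% FBS. Serum withdrawal raised it 1.78-fold in siLAPTM4B cells (0.83 ± 0.07 SE, limma adjusted p = 3e-05) and 2.00-fold in siControl cells (1.00 ± 0.07 SE, limma adjusted p = 2.9e-05). With knockdown the difference was -0.40 ± 0.06 SE at 0% FBS, a description only, and -0.23 ± 0.08 SE at 10% FBS, which did not pass the test (limma, adjusted p = 0.17).

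*PTGER2* and *PTGER4* encode EP2 and EP4, the prostaglandin E2 receptors that raise cyclic AMP. At 0% FBS *PTGER2* was 7.74, 7.76 and 7.90 in siLAPTM4B cells, against 8.45, 8.20 and 8.17 in siControl cells. With 10% FBS it was 6.59, 6.84 and 6.53 in siLAPTM4B cells, against 6.81, 6.65 and 6.58 in siControl cells. The siRNA groups were apart at 0% FBS and overlapped at 10% FBS, where the gene lay at percentiles 30.9 to 36.5 of the features. Serum withdrawal raised *PTGER2* 2.22-fold in siLAPTM4B cells (1.15 ± 0.08 SE, limma adjusted p = 1.3e-05) and 3.02-fold in siControl cells (1.60 ± 0.09 SE, limma adjusted p = 6.5e-06), in both the largest increase of the 7 genes tested. Its knockdown difference was -0.47 ± 0.08 SE at 0% FBS and -0.03 ± 0.09 SE at 10% FBS (limma, adjusted p = 0.92).

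*PTGER4* went the other way. At 0% FBS it was 8.35, 8.38 and 8.32 in siLAPTM4B cells, against 8.31, 8.47 and 8.46 in siControl cells. In serum *PTGER4* measured 8.67, 8.57 and 8.70 in siLAPTM4B cells, against 9.03, 8.94 and 8.93 in siControl cells. The siRNA groups overlapped at 0% FBS and were apart at 10% FBS, as for *PTGES*. Serum withdrawal lowered *PTGER4* in siLAPTM4B cells (-0.30 ± 0.05 SE, limma adjusted p = 0.0035) and in siControl cells (-0.55 ± 0.06 SE, limma adjusted p = 0.00021). With knockdown at 10% FBS it fell to 80.1% of the siControl level (-0.32 ± 0.05 SE, limma adjusted p = 0.017). That call was lost without siControl replicate 2 at 10% FBS (adjusted p = 0.065).

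A gene is called where its limma p, adjusted over all features, is under 0.05. With knockdown at 0% FBS the median of the 10 was -0.25 against 0.0068 over all features, 7 of 10 differences were below 0 and 5 of 10 had arrays that did not overlap, all 5 lower. In this comparison 21.3% of all features had arrays that did not overlap (9.72% higher and 11.6% lower) and 2.33% were called (0.591% higher and 1.74% lower), and nothing is read from the 10 genes against it, since it served to choose them. With knockdown at 10% FBS, 4 of the 10 genes were called lower (*PTGS2*, *PTGES*, *MGLL* and *PTGER4*) and 0 higher. *PTGS2* and *MGLL* were selected, with *TBXAS1*, on their lower signal with the same siRNA at 0% FBS. Counts that include them are therefore not read against the shares of all features. Of the genes not selected in this way, *PTGES* and *PTGER4* were called. Over all 19460 features, 4.08% were called, 1.99% higher and 2.09% lower. All 10 differences were below 0, but those of *PTGS1*, *PTGIS* and *PTGER2* were smaller than their SE. The median was -0.24 (0.0043 over all features), and 6 of the 10 had an unadjusted limma p under 0.05 (18.2% of all features). The 6 were the selected *PTGS2*, *MGLL* and *TBXAS1*, and *PTGES*, *PTGER4* and *HPGD*. In 7 of the 10 genes, these 6 and *PTGES2*, the arrays of the 2 siRNAs did not overlap. Of all features 24.5% did not overlap (12.9% higher and 11.6% lower). The median and both counts include the selected genes, so nothing is read from them against the values of all features. For *HPGD* the nearest arrays were 0.0002 apart. At 10% FBS the 4 leukocyte markers averaged 7.17 to 7.22 in siLAPTM4B cells and 7.09 to 7.17 in siControl cells, with *PTPRC*, the pan-leukocyte marker, below the lower quartile on all 12 arrays, and the 6 epithelial markers averaged 9.86 to 9.92 in siLAPTM4B cells and 9.76 to 9.82 in siControl cells. The part of these shifts in the differences of the 10 genes was not tested.

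**Figure D2:**
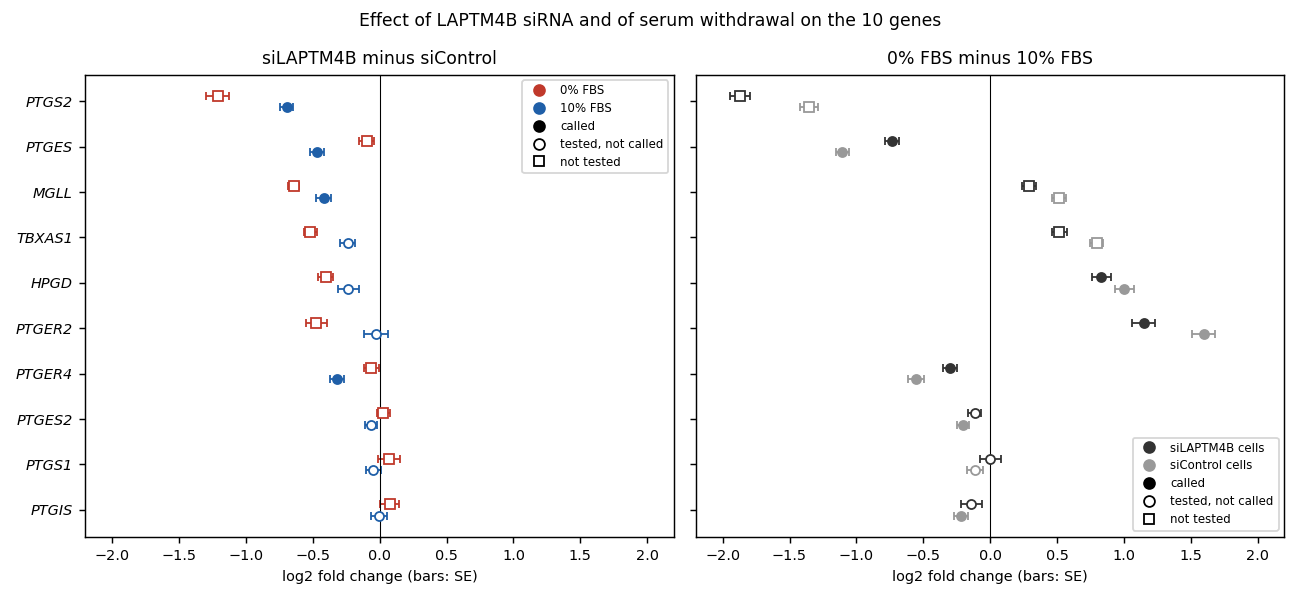
Log2 fold changes (horizontal axis, bars ± SE) of the 10 genes, for siLAPTM4B minus siControl at 0% and 10% FBS (left) and for 0% minus 10% FBS in siLAPTM4B and siControl cells (right). Filled circles passed an adjusted p under 0.05, open circles did not, and squares were not tested. At 10% FBS *PTGS2*, *PTGES*, *MGLL* and *PTGER4* are filled and below 0, and *HPGD* and *PTGER2* lie above 0 and *PTGES* and *PTGER4* below 0 in both serum comparisons.

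Serum withdrawal was tested on the 7 genes other than *PTGS2*, *MGLL* and *TBXAS1*. In siLAPTM4B cells 4 of 7 were called, *HPGD* and *PTGER2* higher and *PTGES* and *PTGER4* lower, where 20.7% of all features were called, 9.74% higher and 11.0% lower. In siControl cells 6 of 7 were called, 2 higher (*HPGD*, *PTGER2*) and 4 lower (*PTGES*, *PTGES2*, *PTGIS*, *PTGER4*), where 26.0% of all features were called, 13.2% higher and 12.9% lower. The median of the 10 genes was -0.06 in siLAPTM4B cells and -0.16 in siControl cells, and -0.0058 and -0.02 over all features. These medians of the 10 include *PTGS2*, *MGLL* and *TBXAS1*, so nothing is read from them against all features. The serum and knockdown comparisons share arrays and are not independent of each other. The fibroblast and the epithelial marker lists separated the media on every array. The 4 fibroblast markers averaged 7.17 to 7.25 in siLAPTM4B cells and 7.22 to 7.26 in siControl cells at 0% FBS, against 7.50 to 7.60 in siLAPTM4B cells and 7.54 to 7.65 in siControl cells at 10% FBS. Within that list *PDGFRB*, a platelet-derived growth factor receptor, lay between 7.60 and 8.12 at 0% FBS and between 8.80 and 9.31 at 10% FBS, while the other 3 genes overlapped between the media and *DCN* lay below the lower quartile on all 12 arrays. The 6 epithelial markers averaged 9.71 to 9.74 in siLAPTM4B cells and 9.70 to 9.74 in siControl cells at 0% FBS, against 9.86 to 9.92 in siLAPTM4B cells and 9.76 to 9.82 in siControl cells at 10% FBS. Within the list *KRT7* was lower at 0% FBS (9.11 to 9.54) than at 10% FBS (11.00 to 11.17), and *EPCAM* was higher (9.33 to 9.89 at 0% FBS and 8.20 to 9.05 at 10% FBS). The part of these markers in the serum differences was not tested.

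Over the 12 arrays *PTGS2* and *PTGES* had a Pearson correlation of 0.92, *PTGES* and *PTGER4* of 0.96, *HPGD* and *PTGER2* of 0.97 and *TBXAS1* and *HPGD* of 0.97. *PTGS2* and *MGLL* had one of -0.09. These are descriptions over 12 arrays that share 4 groups, so that the difference between the media enters each of them. By the same measure, the genes outside the set whose signal was most like that of *PTGS2* were *AMZ2* (0.993), *GNG2* (0.990), *MMD* (0.989), *AIG1* (0.988) and *ANK3* (0.984). Those most like *MGLL* were *MIR22HG* (0.985), *ADIPOR2* (0.983), *ACTG2* (0.977), *GPR158* (0.971) and *GNPDA1* (0.971). Those most like *TBXAS1* were *LOX* (0.994), *SLITRK6* (0.987), *RYBP* (0.986), *AMIGO2* (0.985) and *PTPN13* (0.985). The spans differed more than the order of the groups. *AMZ2* averaged 10.80 in siLAPTM4B cells at 0% FBS and 11.30 in siControl cells at 10% FBS, a smaller distance than the 8.98 and 11.54 of *PTGS2*.

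**Figure D3:**
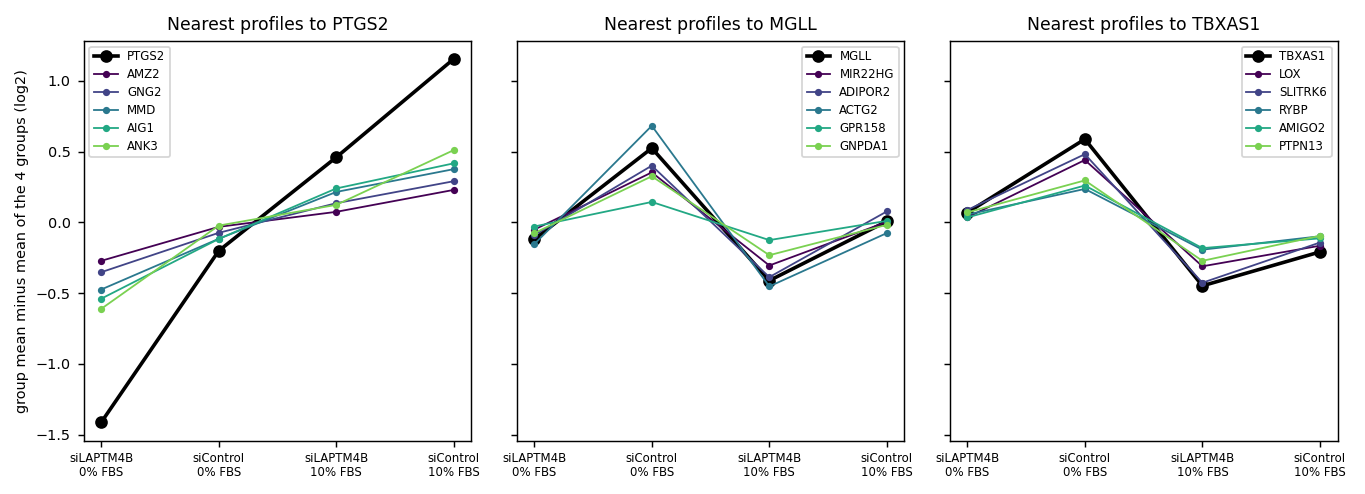
Group means minus the mean of the 4 groups (vertical axis, log2) of *PTGS2*, *MGLL* and *TBXAS1* (black) and of the 5 genes most correlated with each over the 12 arrays (colours), for the 4 groups on the horizontal axis. The lines rise from left to right for *PTGS2* and its 5 neighbours, while for *MGLL* and *TBXAS1* and their neighbours siControl at 0% FBS is the highest group.

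Of 71 other genes in 8 lists around this pathway, 64 had a feature of their own. With knockdown at 0% FBS 3 of 64 were called lower and 0 higher, where 1.74% of all features were called lower and 0.591% higher. At 10% FBS 4 were called lower and 2 higher, where 2.09% of all features were called lower and 1.99% higher. An unadjusted limma p under 0.05 was reached by 17 at 0% FBS, against 15.1% of all features, and by 16 at 10% FBS, against 18.2%. The medians of the 64 were -0.03 and 0.01, against 0.0068 and 0.0043 over all features. On serum withdrawal 10 were called higher and 10 lower in siLAPTM4B cells, where 9.74% of all features were called higher and 11.0% lower. In siControl cells 13 were called higher and 8 lower, where 13.2% of all features were called higher and 12.9% lower. The medians were -0.0069 in siLAPTM4B and -0.02 in siControl cells, against -0.0058 and -0.02 over all features. The lists are described in the order of the pathway.

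Of the 6 measured phospholipases that release arachidonate, only *PLA2G4A* was called in any comparison. It encodes cytosolic phospholipase A2, the main enzyme of arachidonate release from membranes. At 0% FBS its signal was 9.78, 9.79 and 9.90 in siLAPTM4B cells, against 10.23, 10.20 and 10.23 in siControl cells, and it fell to 75.9% with knockdown (-0.40 ± 0.05 SE, limma adjusted p = 0.0054). At 10% FBS it was 10.68, 10.82 and 10.90 in siLAPTM4B cells, against 11.02, 11.06 and 11.14 in siControl cells, which narrowly missed the threshold (-0.27 ± 0.06 SE, adjusted p = 0.052). Serum withdrawal lowered it to 50.8% in siLAPTM4B cells (adjusted p = 7.6e-06) and to 55.4% in siControl cells (adjusted p = 4.9e-06), so that its order of groups was that of *PTGS2*. The median of the 6 was -0.02 in each knockdown comparison.

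The 3 measured genes of arachidonate reacylation, which return it to membrane lipids, were not called with knockdown in either medium, by limma (1 at an unadjusted p under 0.05 at 0% FBS and 0 at 10% FBS) or by the methods' t-test with its p-values adjusted the same way. On serum withdrawal all 3 were called in both siRNA groups, where 20.7% of all features were called in siLAPTM4B and 26.0% in siControl cells. In siLAPTM4B cells *ACSL4*, the arachidonate-preferring acyl-CoA synthetase, rose by 0.60 ± 0.06 SE and *LPCAT3* by 0.16 ± 0.05 SE, while *MBOAT7* fell by 0.40 ± 0.05 SE (limma, adjusted p from 0.00012 to 0.04). In siControl cells the differences were 0.48, 0.31 and -0.35 (adjusted p from 0.00011 to 0.00052). The *LPCAT3* call in siLAPTM4B cells was lost without any 1 array other than replicate 2 at 10% FBS (adjusted p = 0.082 to 0.12).

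Around *MGLL*, 0 of 12 enzymes and receptors of the monoacylglycerol and endocannabinoid pathway were called with knockdown by limma at 0% FBS (3 at an unadjusted p under 0.05) and 0 at 10% FBS (5), and 0 in either medium by the methods' t-test, with medians of -0.03 and 0.02. Among these were *DAGLA* and *DAGLB*, which make 2-arachidonoylglycerol, and *ABHD6* and *ABHD12*, which also hydrolyse it. *ABHD6* differed by -0.16 ± 0.04 SE at 0% FBS (limma, adjusted p = 0.11) and by -0.13 ± 0.05 SE at 10% FBS (adjusted p = 0.19), with arrays that did not overlap in either medium. On serum withdrawal *DAGLA* rose in siLAPTM4B cells (0.46 ± 0.06 SE, limma adjusted p = 0.00047) and in siControl cells (0.51 ± 0.05 SE, adjusted p = 0.00011). *NAPEPLD* (-0.28) was called lower in siLAPTM4B cells, a call lost without any 1 array other than replicate 3 at 0% FBS (adjusted p = 0.06 to 0.13). In siControl cells *NAAA* (0.30) and *ABHD16A* (0.20) were called higher and *PNPLA2* (-0.25) lower.

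Of the 6 other prostanoid synthases, *AKR1C3* was called lower in all 4 comparisons and no other in any. *AKR1C3*, an aldo-keto reductase that makes prostaglandin F from prostaglandins H2 and D2, measured 7.09, 6.93 and 7.18 in siLAPTM4B cells, against 7.44, 7.34 and 7.41 in siControl cells at 0% FBS. At 10% FBS it measured 8.10, 8.45 and 8.34 in siLAPTM4B cells, against 8.92, 8.93 and 8.95 in siControl cells. It fell with knockdown by 0.33 ± 0.07 SE at 0% FBS (limma, adjusted p = 0.043) and by 0.64 ± 0.08 SE at 10% FBS (adjusted p = 0.005). The call at 0% FBS was lost without any 1 array other than siLAPTM4B replicate 3 (adjusted p = 0.096 to 0.14). Serum withdrawal lowered it to 42.7% in siLAPTM4B cells (adjusted p = 1.6e-05) and to 34.5% in siControl cells (adjusted p = 2.9e-07). The AKR1C genes are close copies of each other, so that its probes may also read its relatives.

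Of the 7 other prostanoid receptors, only *TBXA2R*, the thromboxane receptor, was called. With knockdown at 0% FBS the difference was 0.09 ± 0.07 SE (limma, adjusted p = 0.51), and at 10% FBS it rose to 123.6% of the siControl level (0.31 ± 0.05 SE, adjusted p = 0.017). The difference between these 2 effects did not pass its test (-0.22, adjusted p = 0.27). The call at 10% FBS was lost without siLAPTM4B replicate 1 or 2 (adjusted p = 0.052 and 0.054) and without siControl replicate 2 or 3 (0.064 and 0.07). Serum withdrawal raised *TBXA2R* 1.90-fold in siLAPTM4B cells (adjusted p = 3.7e-06) and 2.21-fold in siControl cells (adjusted p = 2e-06).

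Of the 5 genes of prostanoid transport and inactivation, 0 were called at 0% FBS by limma (3 at an unadjusted p under 0.05) or by the methods' t-test, and at 10% FBS *PTGR3*, a prostaglandin reductase, rose (0.29 ± 0.05 SE, adjusted p = 0.023) and *ABCC4*, an exporter of prostaglandin E2, fell (-0.23 ± 0.04 SE, adjusted p = 0.03). At 0% FBS the difference of *PTGR3* was 0.11 ± 0.05 SE (adjusted p = 0.34) and that of *ABCC4* was -0.19 ± 0.04 SE (adjusted p = 0.069), and the knockdown effects in the 2 media did not pass the test of their difference (*PTGR3* -0.18, adjusted p = 0.37, and *ABCC4* 0.03, adjusted p = 0.86). The *ABCC4* call was lost without any 1 of the 6 arrays (adjusted p = 0.061 to 0.11), and that of *PTGR3* without any 1 other than siLAPTM4B replicate 3 (0.053 to 0.11). On serum withdrawal *SLCO2A1*, the prostaglandin uptake transporter, rose in both siRNA groups (0.18 in siLAPTM4B and 0.33 in siControl cells), while *ABCC4* (-0.23 in siLAPTM4B and -0.26 in siControl cells) and *PTGR1* (-0.32 in siLAPTM4B and -0.19 in siControl cells) fell in both. *PTGR2* (-0.34) and *PTGR3* (-0.20) were called lower in siLAPTM4B cells, so that all 5 genes were called there, against 20.7% of all features. In siLAPTM4B cells the calls of *SLCO2A1* and *PTGR3* were lost without any 1 array other than replicate 3 at 10% FBS (adjusted p = 0.088 to 0.13 and 0.068 to 0.13), and in siControl cells that of *PTGR1* without replicate 2 or 3 of either medium (0.08 to 0.11). In the lipoxygenase branch, which makes leukotrienes, 0 of 11 were called with knockdown by limma in either medium (1 at an unadjusted p under 0.05 at 0% FBS and 0 at 10% FBS) or by the methods' t-test. Serum withdrawal lowered *ALOX5AP*, the activator of 5-lipoxygenase, by 0.79 ± 0.09 SE in siLAPTM4B cells and by 0.63 ± 0.05 SE in siControl cells, and *LTA4H* by 0.27 in siLAPTM4B cells and by 0.32 in siControl cells (limma, adjusted p from 2.7e-05 to 0.0036).

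Among 14 factors known to act on the transcription of *PTGS2* or on the stability of its mRNA, *FOS* was called lower with knockdown at 0% FBS. Its signal was 9.11, 9.10 and 9.21 in siLAPTM4B cells, against 9.70, 9.61 and 9.97 in siControl cells (-0.62 ± 0.09 SE, limma adjusted p = 0.011). The call was lost without siLAPTM4B replicate 2 (adjusted p = 0.057). With serum *FOS* measured 8.43, 8.25 and 8.36 in siLAPTM4B cells, against 7.92, 8.10 and 8.18 in siControl cells, a difference of 0.28 ± 0.08 SE in the other direction that did not pass (adjusted p = 0.084). The difference between the media was -0.90 ± 0.13 SE and passed its test (limma, adjusted p = 0.0096), the 1 call among the 64 genes, where 0.262% of all features were called, 0.0719% higher and 0.190% lower. At 10% FBS *CEBPD* and *CEBPB*, which bind C/EBP motifs, were called lower, *CEBPD* by 0.31 ± 0.04 SE (adjusted p = 0.0084) and *CEBPB* by 0.23 ± 0.05 SE (adjusted p = 0.043). At 0% FBS the difference of *CEBPD* was -0.13 ± 0.05 SE (adjusted p = 0.24) and that of *CEBPB* was -0.22 ± 0.05 SE (adjusted p = 0.088), and neither gene passed the test of the difference between the media (*CEBPD* 0.18, adjusted p = 0.27, and *CEBPB* 0.01, adjusted p = 0.96). The call of *CEBPB* was lost without any 1 of the 6 arrays (adjusted p = 0.067 to 0.18). On serum withdrawal *FOS*, *JUN*, *ZFP36*, *TIA1* and *CELF2* were called higher in both siRNA groups and *ATF2* in siControl cells, none lower. In siLAPTM4B cells *FOS* rose by 0.79 ± 0.06 SE, *JUN* by 0.71 ± 0.06 SE and *ZFP36*, whose protein destabilises AU-rich mRNAs, by 0.59 ± 0.06 SE. In siControl cells these 3 rose by 1.70, 1.15 and 0.88. *TIA1* (0.17 in siLAPTM4B and 0.26 in siControl cells) and *CELF2* (0.26 in siLAPTM4B and 0.23 in siControl cells) rose less. In siLAPTM4B cells the call of *TIA1* was lost without any 1 of the 6 arrays (adjusted p = 0.052 to 0.11), and that of *CELF2* without replicate 1 or 3 at 0% FBS or replicate 2 at 10% FBS (0.055 to 0.073). In siControl cells that of *CELF2* was lost without replicate 3 of either medium (0.053 and 0.055). *PTGS2* itself had its lower signals at 0% FBS, as given above, and a link between these factors and *PTGS2* was not tested.

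**Figure D4:**
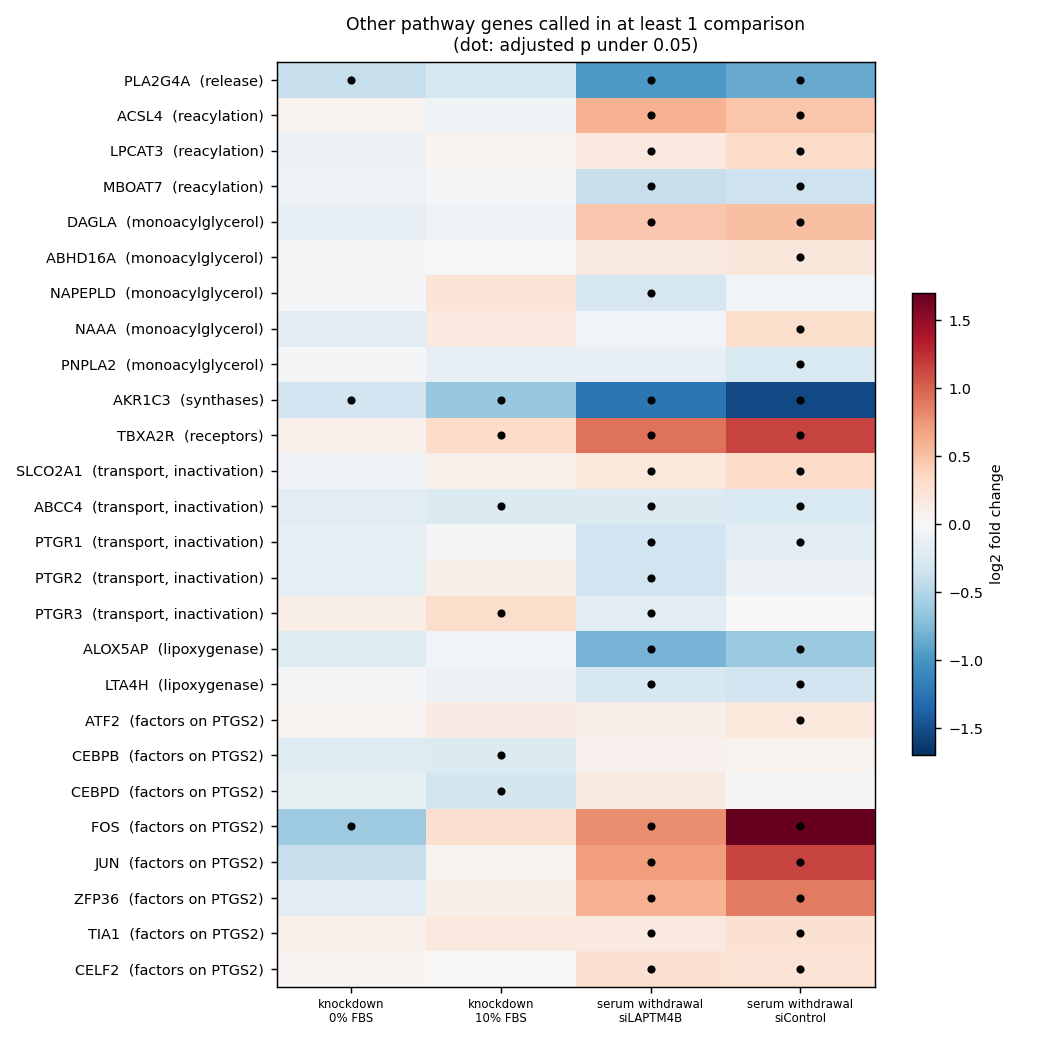
Log2 fold changes (colour, red higher and blue lower) of the 26 other pathway genes called in at least 1 of 4 comparisons, with the list of each gene in brackets and a dot where the adjusted p was under 0.05. *AKR1C3* is blue with a dot in all 4 columns, and most dots stand in the 2 serum withdrawal columns.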

How the data were processed

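RNA of Calu-6 cells was profiled on 12 Affymetrix Human Gene 1.0 ST arrays, 3 per group, and groups and replicate numbers follow the sample labels. The deposited values are log2 signals, which the authors obtained by RMA, which corrects background, quantile-normalizes the arrays and summarizes probes, and log2 transformation in BRB-ArrayTools. Quantile normalization sets all arrays to one distribution, so a shift shared by most genes would not show. The library file and the probe set level are not given in the sources used here. Signals lay between 3.37 and 14.8, and an array signal has no true zero, so folds of dim genes may be understated.

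Of 33252 features, 19460 carried exactly 1 gene symbol in the platform annotation (18417 genes, 769 with several features), 1754 carried several and 12038 none. Features with 1 symbol were fitted with limma 3.58.1 in R 4.3.3 (lmFit and eBayes), each comparison on its 6 arrays and the interaction on all 12. Benjamini-Hochberg adjustment covered these 19460 features, and a call required an adjusted p below 0.05. A gene with several features was represented by the one of highest mean signal. The scripts were checked on simulated data.

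The 10 genes, the 8 lists of other pathway genes and the marker lists were chosen with earlier results of these data known. The text names all 10 genes, up to 4 called genes per list, direction and comparison by size of change, and the 5 genes most correlated with *PTGS2*, *MGLL* and *TBXAS1*. Promoter sequences are RefSeq's.

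Same-numbered arrays were checked for pairing by the correlation of their deviations from the group means. In siControl cells with and without serum these were 0.366, 0.13 and 0.2. Differently numbered arrays were not compared in this way, so these values do not settle whether the arrays are paired. The labels state no shared day. In the other 3 comparisons at least 1 of the 3 correlations was under 0.1 (the lowest were 0.0694, -0.0795 and -0.167). Alternatives were the replicate block, all features, leaving out dim features, an intensity trend with a robust prior, arrays centred on their median, all 12 arrays in one fit, the Student's t-test that the methods name for in vitro experiments (the methods' t-test) and leaving out each array in turn.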

Additional observations from a re-analysis of the deposited data

Results flagged for a closer look

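The knockdown effect on *FOS*, which encodes an AP-1 subunit, differed between the media. It was -0.62 at 0% FBS and 0.28 at 10% FBS on the log2 scale, a difference of -0.90 ± 0.13 SE. This passed the limma test of the difference itself (adjusted p = 0.0096, and between 0.0004 and 0.051 over 16 alternatives, centred arrays not among them). The 3 siLAPTM4B arrays were lower than every siControl array at 0% FBS and higher than every one at 10% FBS.

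*LPCAT3*, an acyltransferase that returns arachidonate to phospholipids, had arrays on opposite sides in the same way, at 13.18, 13.17 and 13.19 in siLAPTM4B cells against 13.30, 13.29 and 13.27 in siControl cells at 0% FBS, and at 13.00, 13.06 and 13.00 in siLAPTM4B cells against 12.96, 12.96 and 12.99 in siControl cells at 10% FBS. The difference of its knockdown effects was -0.15 on the log2 scale and did not pass the test (limma, adjusted p = 0.29).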

How the results depend on the processing

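No called difference of the 10 genes reversed direction under the alternatives run. A change of sign in a difference that was not called, such as that of *PTGIS* with knockdown at 10% FBS, was not counted as a reversal. With knockdown at 10% FBS, 4 of the 10 genes were called, 2 under the methods' t-test with Benjamini-Hochberg adjustment (*PTGS2*, *PTGES*) and 3 to 4 without 1 array. *TBXAS1*, not called there, was called with dim features left out (adjusted p = 0.045), with a trend and robust prior (0.041) and with all 12 arrays in one fit (0.014), and *HPGD* with the trend and robust prior (0.048). *PTGER4* was not called over all features (0.062) or by the methods' t-test (0.097), nor *MGLL* by that t-test (0.071). On serum withdrawal 4 of 7 genes were called in siLAPTM4B cells without any 1 array, and 5 to 6 in siControl cells, where *PTGIS* was not called by the methods' t-test (0.063). With the replicate block, 4 genes were called with knockdown at 10% FBS, 4 on serum withdrawal in siLAPTM4B cells and 6 in siControl cells, the block changing no call of the 10 genes. It ended the calls of *CEBPB* with knockdown at 10% FBS (0.057) and of *LPCAT3* (0.061) and *PTGR3* (0.051) on serum withdrawal in siLAPTM4B cells. With arrays centred on their median, 3 serum withdrawal calls were lost by limma. They were *PTGR1* in siControl cells (adjusted p = 0.056) and *LPCAT3* (0.077) and *TIA1* (0.063) in siLAPTM4B cells. Taking the mean over all features of a gene changed nothing for the 10 genes, each of which has 1. The median knockdown difference of the 10 genes without 1 array was -0.286 to -0.217 at 0% FBS, and that of the difference between the media -0.105 to -0.0157.

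Of the 64 other pathway genes, 3 were called with knockdown at 0% FBS, 1 over all features, 7 with a trend and robust prior, 5 with all 12 arrays in one fit, 0 by the methods' t-test (limma: 17 at an unadjusted p under 0.05) and 1 to 3 without 1 array. At 10% FBS 6 were called, 2 over all features, 12 with the trend and robust prior, 2 by the methods' t-test and 2 to 4 without 1 array. Of the 6, the methods' t-test called only *CEBPD*, and its other call was of a gene that limma did not call. On serum withdrawal 15 to 17 in siLAPTM4B cells and 19 to 21 in siControl cells were called without 1 array, and for the difference between the media 1 was called, 0 over all features, 2 with the trend and robust prior and 1 to 2 without 1 array. Over the 19460 single-symbol features, knockdown at 0% FBS gave 454 calls. It gave 134 when all 33252 features were tested and counted. Over the single-symbol features it gave 1126 with the trend and robust prior, 687 with all 12 arrays in one fit and 27 by the methods' t-test. At 10% FBS the same settings gave 793, 279, 1686, 1370 and 177. The difference between the media gave 51 calls, 84 with the replicate block and 163 with the trend and robust prior. It gave 17 calls over all 33252 features and 81 over the 16735 left without dim features. The cause of these changes was not tested. Few replicates limit the calls near the threshold, and signals near the lower quartile, such as those of *PTGS1* and *PTGIS*, are close to the background of the arrays.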
